A study of Homo sapiens with 11 samples.

Results

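The 10 regions described here are imprinted loci, stretches of the genome with genes that are expressed mainly or only from the copy inherited from a single parent. They were chosen by name and by hg19 span: H19, KCNQ1OT1, PEG3, MEST, PEG10, SNRPN, GNAS, NNAT, PLAGL1 and GRB10, each taken with 5 kb on either side. All 10 spans could be placed, and the resulting loci measured between 12.5 kb (NNAT) and 213.4 kb (GRB10). As background the whole series was cut into 60695 tiles of 50 kb on chromosomes 1 to 22 and X. The data are lists of enriched intervals from ChIP-seq of MDA-MB-231, an established line of human triple-negative breast cancer. The KO cells, made with CRISPR-Cas9, had no mdig protein (also called MINA53 or RIOX2, a JmjC-domain oxygenase), and the WT cells, labelled as products of the same CRISPR-Cas9 work, had normal mdig protein. Both were grown in medium with blasticidin. The labels do not say whether the KO or WT cells were a clone or a pool. Each of 5 antibodies (H3K4me3, H3K36me3, H3K9me3, H4K20me3 and MINA) was used on 1 KO and 1 WT library. No test was possible, so all values describe these 10 libraries, and the depth of each library is unknown. The lists give positions with no score, so a value below is the length covered by intervals.

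Imprinting rests on control regions whose DNA is methylated on the copy from a given parent and not on the other. The unmethylated copy of such a region usually works as a promoter or insulator and can carry H3K4me3, the mark of active promoters. The methylated copy is bound by the zinc finger protein ZFP57, which recognises the methylated hexamer TGCCGC, and is known to carry the silent marks H3K9me3 and H4K20me3. Both kinds of marks on the same bases of a list can come from different parental copies, from different cells or from the same copy. ChIP without allele information cannot tell these apart. H3K36me3 is laid down along genes as they are transcribed.

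Promoter sequences are shown for some starts of MEST, SNRPN, PLAGL1 and GRB10, genes in which the marks described below lay at some starts only. GNAS was another such gene, but its windows and the remaining windows of these genes are not shown. The sequences come from RefSeq (GRCh38.p14), run from 250 bases before to 50 bases after the start site, and are written 5′ to 3′. Capitals mark TGCCGC in either orientation.
MEST, start of the gene (chr7:130485925-130486224, + strand): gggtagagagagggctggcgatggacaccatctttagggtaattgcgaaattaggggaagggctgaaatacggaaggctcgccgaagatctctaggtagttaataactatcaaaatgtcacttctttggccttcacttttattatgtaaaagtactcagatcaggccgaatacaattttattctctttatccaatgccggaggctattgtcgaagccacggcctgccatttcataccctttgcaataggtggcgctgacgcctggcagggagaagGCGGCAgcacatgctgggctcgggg
MEST, inner start (chr7:130491835-130492134, + strand): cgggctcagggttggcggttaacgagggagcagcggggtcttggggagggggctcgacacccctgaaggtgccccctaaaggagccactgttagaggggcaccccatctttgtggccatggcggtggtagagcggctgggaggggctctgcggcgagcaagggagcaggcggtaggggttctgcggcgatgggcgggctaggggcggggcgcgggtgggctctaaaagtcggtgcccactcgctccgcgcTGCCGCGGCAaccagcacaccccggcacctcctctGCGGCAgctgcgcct
SNRPN, inner start (chr15:24954737-24955036, + strand): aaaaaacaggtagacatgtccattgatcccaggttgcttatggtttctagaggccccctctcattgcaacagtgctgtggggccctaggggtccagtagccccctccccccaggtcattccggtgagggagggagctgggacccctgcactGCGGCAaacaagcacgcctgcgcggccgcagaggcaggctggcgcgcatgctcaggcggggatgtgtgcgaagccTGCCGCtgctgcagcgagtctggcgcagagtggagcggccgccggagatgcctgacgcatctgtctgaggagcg
PLAGL1, start of the gene (chr6:144064550-144064849, - strand): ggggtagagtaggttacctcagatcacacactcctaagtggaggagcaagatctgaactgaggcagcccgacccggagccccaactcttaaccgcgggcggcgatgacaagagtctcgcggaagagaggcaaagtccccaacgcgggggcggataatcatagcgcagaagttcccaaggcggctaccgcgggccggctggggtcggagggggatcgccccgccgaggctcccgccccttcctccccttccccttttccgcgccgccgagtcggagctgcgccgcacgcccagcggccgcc
PLAGL1, inner start (chr6:144008210-144008509, - strand): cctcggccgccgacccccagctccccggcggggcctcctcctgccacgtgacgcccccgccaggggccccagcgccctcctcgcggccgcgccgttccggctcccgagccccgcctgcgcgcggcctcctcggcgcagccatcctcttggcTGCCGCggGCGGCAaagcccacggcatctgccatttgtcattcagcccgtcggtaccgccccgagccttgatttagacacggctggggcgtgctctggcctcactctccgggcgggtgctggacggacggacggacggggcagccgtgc
GRB10, inner start (chr7:50782847-50783146, - strand): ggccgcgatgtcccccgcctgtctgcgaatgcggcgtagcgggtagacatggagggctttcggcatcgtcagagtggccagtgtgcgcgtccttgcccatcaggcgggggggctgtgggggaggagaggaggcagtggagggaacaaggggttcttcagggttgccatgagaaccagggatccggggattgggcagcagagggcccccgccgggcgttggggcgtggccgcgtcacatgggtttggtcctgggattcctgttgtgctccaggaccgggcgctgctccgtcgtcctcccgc
The table held 26 windows for 6 of the 10 members. TGCCGC was present on either strand in 9 of the 26, and in 16.7% of all 35116 windows of that length. The 5 letters GCCAT, the core of the motif of the zinc finger protein YY1, were present in 11 of the 26 and in 37.8% of all windows. Windows of nearby starts of a gene overlap, so these counts share bases. The inner MEST window held 3 matches, of which a forward and a reverse one share bases, and the window at the start of the gene held 1. The inner SNRPN and inner PLAGL1 windows held 2 each, and the inner GRB10 window and the window at the start of PLAGL1 held none. Among the windows not shown, that at the start of GRB10 held 1. Of the GNAS windows, only that at the start of the gene held a match. The number of CpG was 25 in the inner MEST window and 13 at the start of the gene, 18 in the inner SNRPN window, 24 in the inner GRB10 window, and 39 in the inner PLAGL1 window against 31 at its start. The median of all windows was 14. A match describes the letters of a window and does not show a bound site.

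The silent mark H3K9me3 was found at 9 loci in KO and 8 in WT, and the active mark H3K4me3 at 7 loci in both genotypes. Among the 50-kb tiles, 34.7% held H3K9me3 in KO and 40.6% in WT, and 24.4% held H3K4me3 in KO and 26.3% in WT. The tiles take in gene deserts, whereas each locus holds a gene, and the loci differ in length, so these shares are a rough background only. H3K36me3 was present at 5 loci in KO and 6 in WT, beside 22.7% and 22.6% of tiles. H4K20me3 was present at 7 loci in KO and 2 in WT, beside 26.6% and 11.1%. MINA was present at 4 loci in KO and 7 in WT, beside 11.1% and 18.8%. The loci fell into a set of 7 with H3K4me3 (KCNQ1OT1, MEST, PEG10, GNAS, NNAT, PLAGL1 and GRB10) and a set of 3 with none in either genotype (H19, PEG3 and SNRPN).

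**Figure D1:**
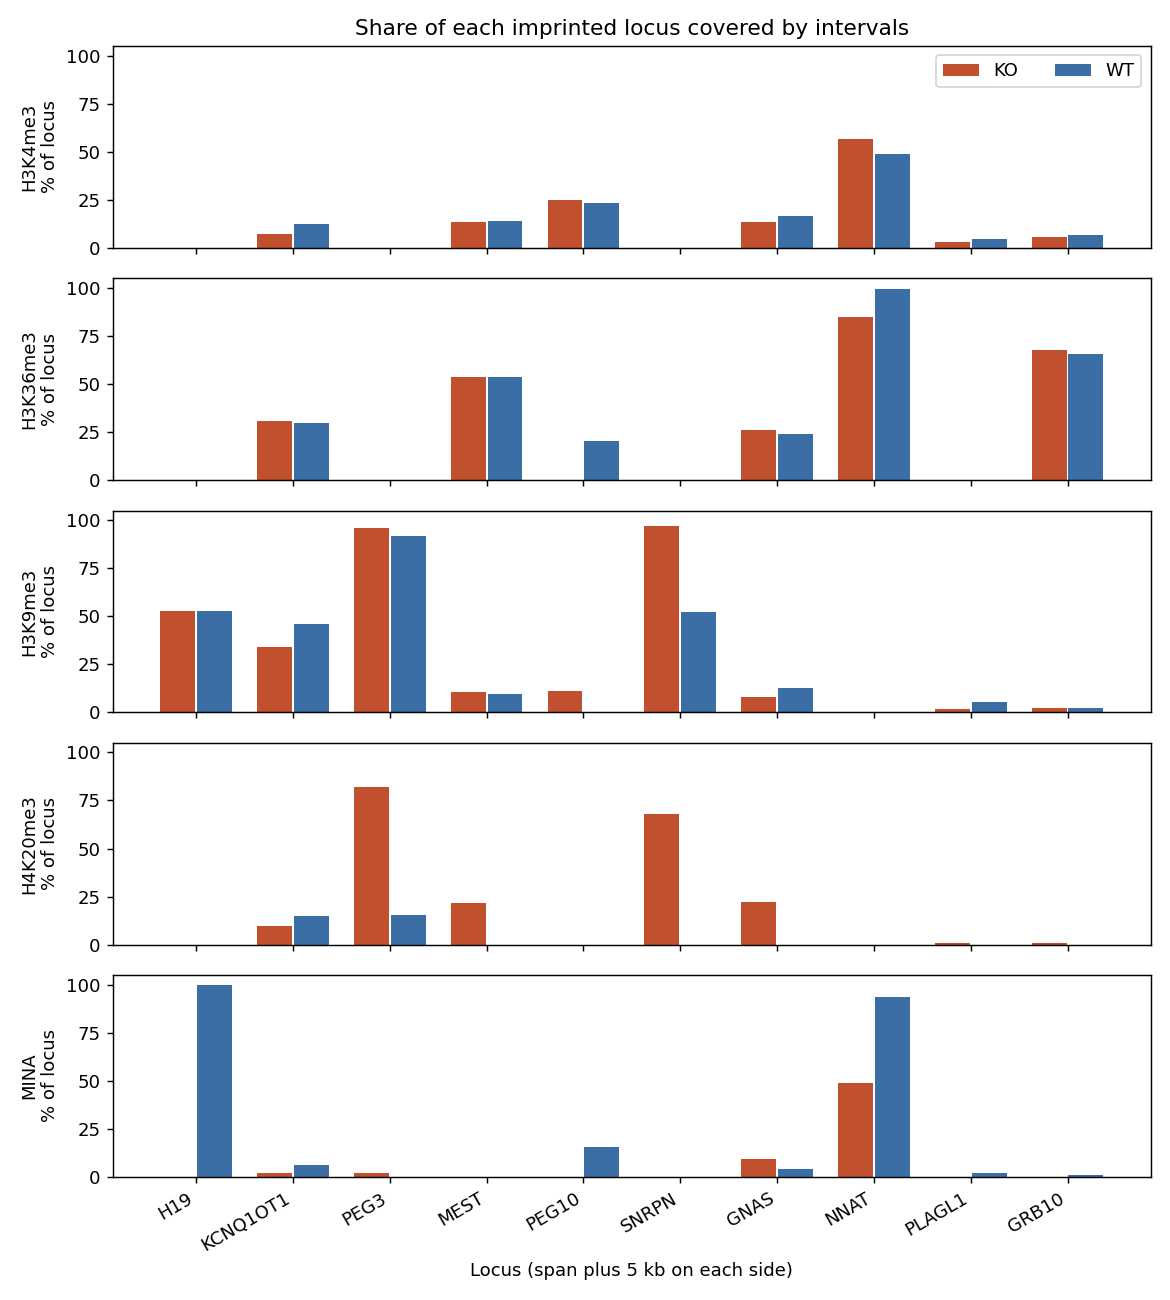
Percent of each locus (span plus 5 kb on each side) covered by the intervals of each antibody, with KO left of WT and 1 library per bar. H3K9me3 filled 96.1% of PEG3 in KO and 92.0% in WT, H4K20me3 filled 68.2% of SNRPN in KO and none in WT, and no H3K4me3 was listed at H19, PEG3 and SNRPN.

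KCNQ1OT1 is a long non-coding RNA that runs antisense inside the gene KCNQ1, and its promoter lies in the control region of that domain. At its 5′ end H3K4me3, H3K9me3 and MINA met in both genotypes. H3K4me3 covered 7.0 kb in KO (chr11:2717601-2724600) and 12.4 kb in WT (chr11:2712801-2725200), a ratio of 0.565 (0.669 after division by the ratio over the genome). The H3K9me3 interval over the 5′ end was 2.8 kb wide in KO (chr11:2720001-2722800) and 19.8 kb wide in WT (chr11:2719601-2739400). H3K4me3 and H3K9me3 shared 2.8 kb in KO and 5.6 kb in WT. The MINA interval at the same place was 2.0 kb wide in KO and 10.2 kb wide in WT, and both began at position 2719801. All 3 lists were thus narrower in KO around the start, while all 3 still had an interval there. Further into the RNA, H3K36me3 covered 31.2 kb in KO and 30.4 kb in WT, and H3K9me3 over the whole locus covered 34.6 kb in KO and 46.7 kb in WT. The widest H3K9me3 interval lay well inside the RNA, with 18.6 kb in KO (chr11:2659201-2677800) and 33.0 kb in WT (chr11:2658801-2691800). H4K20me3 covered 9.9 kb in KO and 15.0 kb in WT, the only one of the 10 loci at which it was shorter in KO. With 20 kb in place of 5 kb on each side it was 7.9 kb longer in KO, so the direction here depends on the flank. In KO alone, a 6.4-kb H4K20me3 interval (chr11:2724001-2730400) lay upstream of the start and shared 0.6 kb with H3K4me3. Since KCNQ1 is transcribed across the same bases on the other strand, H3K36me3 here cannot be assigned to either gene.

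PEG10, a gene derived from a retrotransposon and expressed from the paternal copy, starts back to back with SGCE. H3K4me3 over its 5′ end was nearly the same in both lists, with 5.8 kb in KO (chr7:94282801-94288600) and 5.4 kb in WT (chr7:94283201-94288600). Inside that interval the KO list held a 2.6-kb H3K9me3 interval (chr7:94285201-94287800) and the WT list held none. The WT list held a 3.6-kb MINA interval there (chr7:94284401-94288000) and the KO list held none. H3K36me3 was listed in WT only, with 4.8 kb over the gene body. In the lists, the 5′ end of PEG10 thus had H3K4me3 in both genotypes, H3K9me3 in KO alone and MINA in WT alone. By width the H3K9me3 interval was number 33206 of 53375 in KO, and the MINA interval number 9727 of 16353 in WT. As SGCE starts beside PEG10, these marks cannot be assigned to PEG10 alone. Within 1 Mb on each side H3K9me3 went the other way, with 24.4 kb in KO and 92.6 kb in WT, a ratio of 0.263.

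MEST, which encodes a protein of the hydrolase fold and is expressed from the paternal copy in many tissues, has an outer start and inner starts. H3K4me3 lay over the outer start in both genotypes, with 4.0 kb in KO (chr7:130124801-130128800) and 4.2 kb in WT (chr7:130124601-130128800). H3K9me3 lay further in, with 3.2 kb in KO (chr7:130130201-130133400) and 2.8 kb in WT (chr7:130130401-130133200), and shared no base with H3K4me3 in either genotype. Those H3K9me3 intervals ran from 4.20 to 7.40 kb in KO and from 4.40 to 7.20 kb in WT behind the 5′ end of the hg19 span. In GRCh38.p14 the inner starts of MEST lie 5.15 to 5.91 kb from the 5′ end of the gene. The 2 builds were not aligned here, so the match of these distances, here and for the other genes, is approximate. H4K20me3 was listed in KO only, with 3.6 kb at the outer start and 3.0 kb on the inner H3K9me3 interval. H3K36me3 covered 16.2 kb of the locus in both genotypes. The intervals ran past the 3′ end of MEST towards COPG2, which is transcribed from the other strand, so they cannot be assigned to MEST alone. No MINA interval was present in either list.

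GRB10 encodes an adaptor protein that dampens insulin receptor signalling, and it is imprinted in a way that depends on the tissue. It carried H3K4me3 at 2 places in both genotypes. The outer interval spanned 7.0 kb in KO (chr7:50857801-50864800) and 8.8 kb in WT (chr7:50855201-50864000). The inner interval spanned 5.0 kb in KO (chr7:50848801-50853800) and 5.2 kb in WT (chr7:50848401-50853600), from 7.36 to 12.4 kb in KO and from 7.56 to 12.8 kb in WT behind the 5′ end. RefSeq has an inner start of GRB10 at 10.6 kb. Between the 2 places lay a small H3K9me3 interval of 2.6 kb in KO (chr7:50855201-50857800) and 2.4 kb in WT (chr7:50854801-50857200). It shared no base with H3K4me3 in KO, where both met end to end, and 2.0 kb in WT. A further H3K9me3 interval lay beyond the 3′ end of the gene, 4.2 kb wide in KO and 4.6 kb wide in WT. A 2.4-kb MINA interval lay on the inner H3K4me3 interval in WT, and none was listed in KO. H3K36me3 covered 144.6 kb in KO and 140.2 kb in WT, in 6 intervals each, so that most of the gene body was marked in both. The widest of them lay at the 3′ end of the gene, with 43.6 kb in KO (chr7:50657801-50701400) and 41.8 kb in WT (chr7:50659001-50700800).

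**Figure D2:**
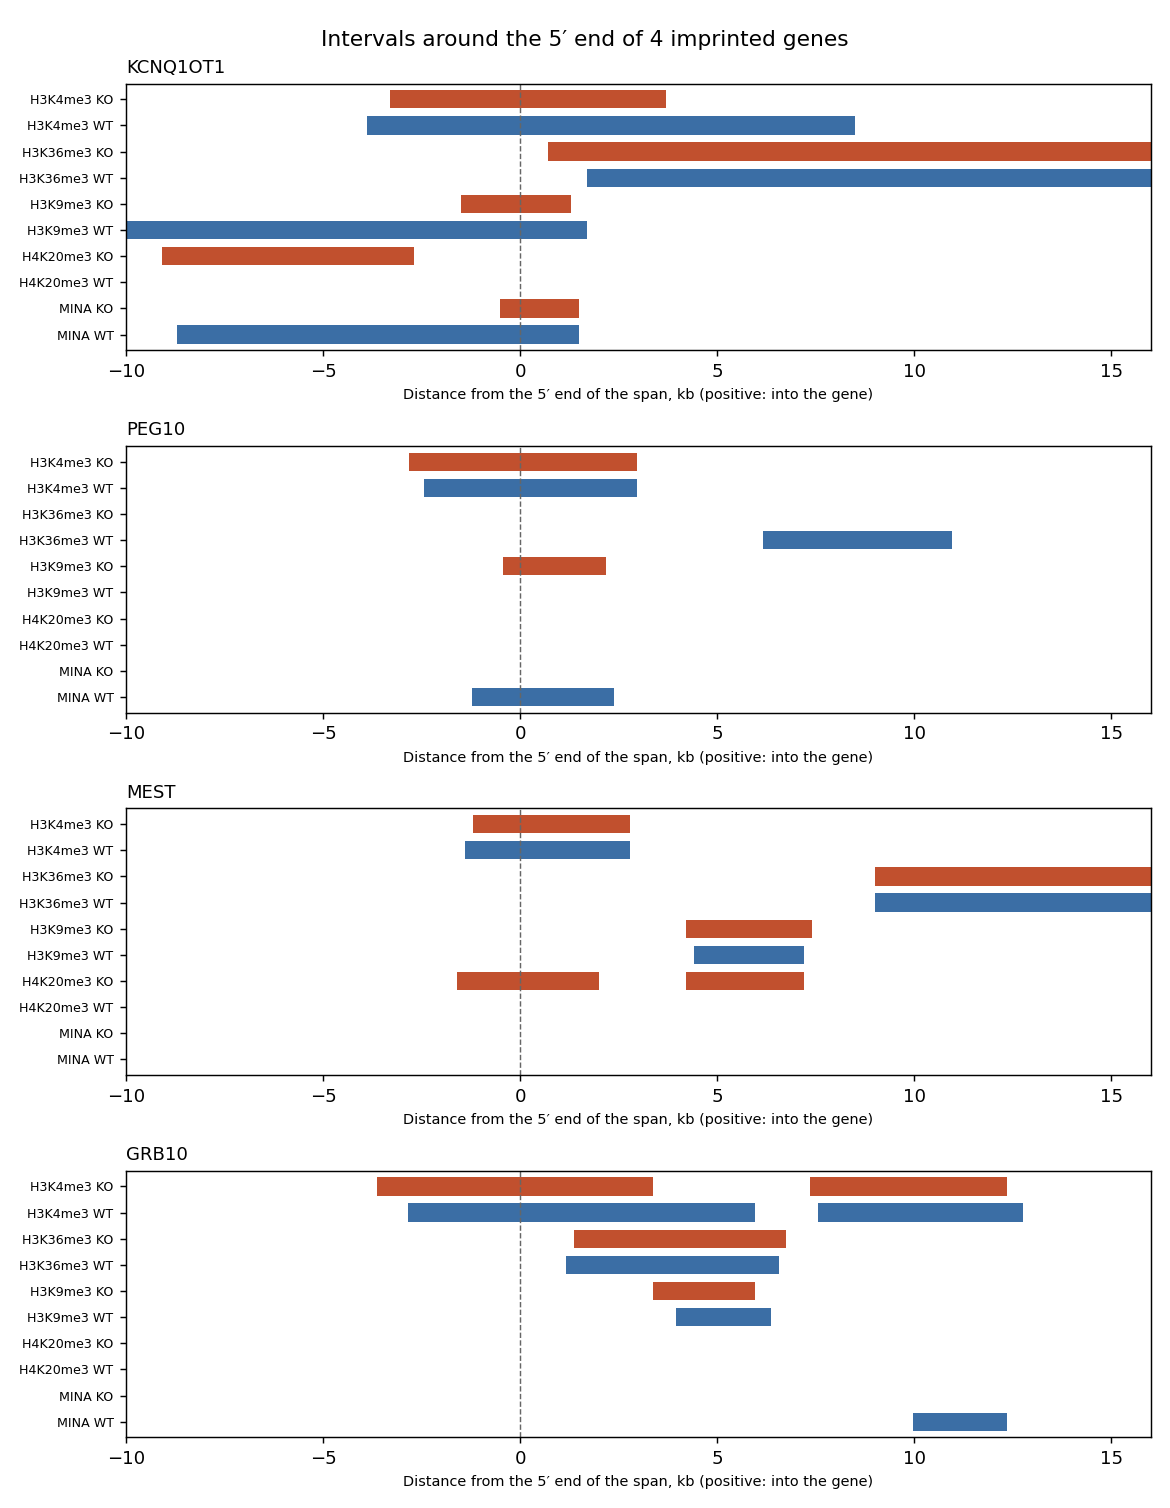
Intervals of the 10 libraries around the 5′ end of KCNQ1OT1, PEG10, MEST and GRB10, by distance in kb from the 5′ end of the hg19 span (dashed line), with each antibody's KO row above its WT row. H3K9me3 overlaps H3K4me3 at the 5′ end of KCNQ1OT1 in both genotypes and of PEG10 in KO alone, and by 2.0 kb near that of GRB10 in WT alone. At MEST it lies behind the H3K4me3 interval and shares no base with it.

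GNAS, which encodes the stimulatory G protein alpha subunit, has several starts that are imprinted in different directions, and an antisense RNA, GNAS-AS1. Its H3K4me3 and H3K9me3 were at different starts. H3K4me3 covered 11 kb in KO (chr20:57460401-57471400) and 13.4 kb in WT (chr20:57459601-57473000), from 45.6 to 56.6 kb in KO and from 44.8 to 58.2 kb in WT behind the 5′ end. RefSeq starts lie at 48.7 and 49.4 kb. H3K9me3 covered a stretch further upstream, with 6.6 kb in KO (chr20:57424601-57431200) and 6.8 kb in WT (chr20:57424601-57431400), from 9.83 kb behind the 5′ end onward. RefSeq starts lie at 13.0 and 13.2 kb. At the 5′ end itself the lists differed. A 3.4-kb H3K9me3 interval (chr20:57414601-57418000) was listed in WT only. A 15.2-kb H4K20me3 interval (chr20:57403401-57418600) and a 3.4-kb MINA interval (chr20:57414201-57417600) were listed in KO only. A further H4K20me3 interval of 9.4 kb lay over the upstream H3K9me3 stretch in KO, where WT held none. At the H3K4me3 interval MINA was present in both, with 4.2 kb in KO and 3.2 kb in WT. H3K36me3 began inside the H3K4me3 interval and covered 21.0 kb of the locus in KO and 19.4 kb in WT.

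PLAGL1 encodes a zinc finger transcription factor, and its imprinted start lies deep inside the longer gene, beside the non-coding RNA HYMAI. H3K4me3 lay over the outer start, with 4.2 kb in KO (chr6:144383201-144387400) and 6.2 kb in WT (chr6:144382201-144388400). A 1.4-kb H4K20me3 interval lay on it in KO only and a 2.4-kb MINA interval in WT only. RefSeq has an inner start at 56.3 kb, whose window holds 39 CpG. No list of either genotype had an interval at that distance from the 5′ end. The H3K9me3 intervals of the locus lay elsewhere, with 2.2 kb in KO and, in WT, 4.0 kb at the same place and 3.2 kb near the far end of the gene. The H3K36me3 lists had no interval at PLAGL1.

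NNAT, a small gene for a membrane proteolipid of developing brain, lies inside an intron of BLCAP. It had no H3K9me3 and no H4K20me3 in either genotype. H3K4me3 covered 7.1 kb of the locus in KO (chr20:36150001-36160600) and 6.1 kb in WT (chr20:36151001-36161600). The whole interval, which the 5-kb flank cuts, was 10.6 kb wide in both. In both lists this interval began behind the 5′ end of NNAT, by 0.401 kb in KO and 1.40 kb in WT, and ran past the 3′ end. H3K36me3 covered 10.6 kb of the 12.5-kb locus in KO and 12.4 kb in WT, as part of intervals of 26.4 kb in KO (chr20:36128801-36155200) and 21.0 kb in WT (chr20:36136001-36157000). MINA covered 6.1 kb in KO and 11.7 kb in WT. The 5′ end lay under a MINA interval in WT (chr20:36142601-36154400), while the KO interval (chr20:36151001-36158800) began 1.40 kb behind it. As BLCAP is transcribed over the same bases, these marks cannot be assigned to NNAT alone.

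H19, PEG3 and SNRPN held neither H3K4me3 nor H3K36me3 in either genotype. H19, a non-coding RNA expressed from the maternal copy, had H3K9me3 over its 5′ end and the stretch before it, where the control region shared with IGF2 lies a short way upstream. That interval was 7.0 kb wide in KO (chr11:2017401-2024400) and 17.8 kb wide in WT (chr11:2017401-2035200). Within the locus both covered the same 6.67 kb, since the part that differs lies more than 5 kb upstream. No H4K20me3 was listed at the locus in either. With 20 kb in place of 5 kb on each side, H4K20me3 covered 13.5 kb in KO and none in WT. H3K9me3 then covered 10.4 kb in KO and 17.8 kb in WT. A MINA interval of 60.8 kb (chr11:2000801-2061600) spanned the whole locus in WT, and the KO list held none. By width it was number 30 of 16353 WT MINA intervals. The region around H19 had the same direction. Within 1 Mb on each side MINA covered 231.2 kb in KO and 923.4 kb in WT, a ratio of 0.250.

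PEG3 encodes a zinc finger protein expressed from the paternal copy and shares its first exons with ZIM2. H3K9me3 covered 39.5 of 41.1 kb in KO and 37.8 kb in WT, in 2 intervals each. The one over the 5′ end and most of the gene was 34.4 kb wide in KO (chr19:57322801-57357200) and 32.6 kb wide in WT (chr19:57322801-57355400). H4K20me3 covered 33.6 kb in KO, in 3 intervals, and 6.4 kb in WT, in 1 interval (chr19:57345601-57352000) that ends next to the 5′ end. The 5′ end was covered in KO by a 13.4-kb interval (chr19:57339401-57352800). The ratio of 5.25 compares with 2.04 within 1 Mb on each side, where the zinc finger genes of distal 19q lie. Of the H4K20me3 in KO, 33.0 kb lay on H3K9me3. A 0.8-kb MINA interval was listed in KO only.

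SNRPN, which encodes a spliceosomal protein of brain, lies in the Prader-Willi region and shares its transcript with SNURF and the host of the small nucleolar RNAs, SNHG14. H3K9me3 covered 159.7 kb of the 165.1-kb locus in KO and 86.4 kb in WT. The KO list had 6 intervals, the widest of 78.2 kb (chr15:25024001-25102200), where the WT list had 18, the widest of 11.2 kb (chr15:25185801-25197000). With intervals within 5 kb of each other merged, the ratio of covered lengths was 1.45, against 1.85 as deposited. H4K20me3 covered 112.6 kb in KO, in 18 intervals of up to 32.8 kb (chr15:25120601-25153400), and none in WT. A 7.0-kb H4K20me3 interval of KO cells covered the 5′ end (chr15:25068601-25075600). Of the covered length 111.8 kb lay on H3K9me3. RefSeq starts lie 32.9, 39.3, 131.4 and 132.7 kb from the 5′ end in GRCh38.p14, and none at that end itself. At 39.3 kb only the KO list of H3K9me3 had an interval. The inner start whose window is shown above lies at 131.4 kb. At that distance both genotypes had an H3K9me3 interval, and the WT one was 3.4 kb wide (chr15:25198801-25202200). An H4K20me3 interval of 6.0 kb was present there in KO only (chr15:25198401-25204400). Within 1 Mb on each side H3K9me3 covered 1047 kb in KO and 397 kb in WT, a ratio of 2.64, and H4K20me3 covered 452 kb in KO and 80.2 kb in WT, a ratio of 5.64.

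**Figure D3:**
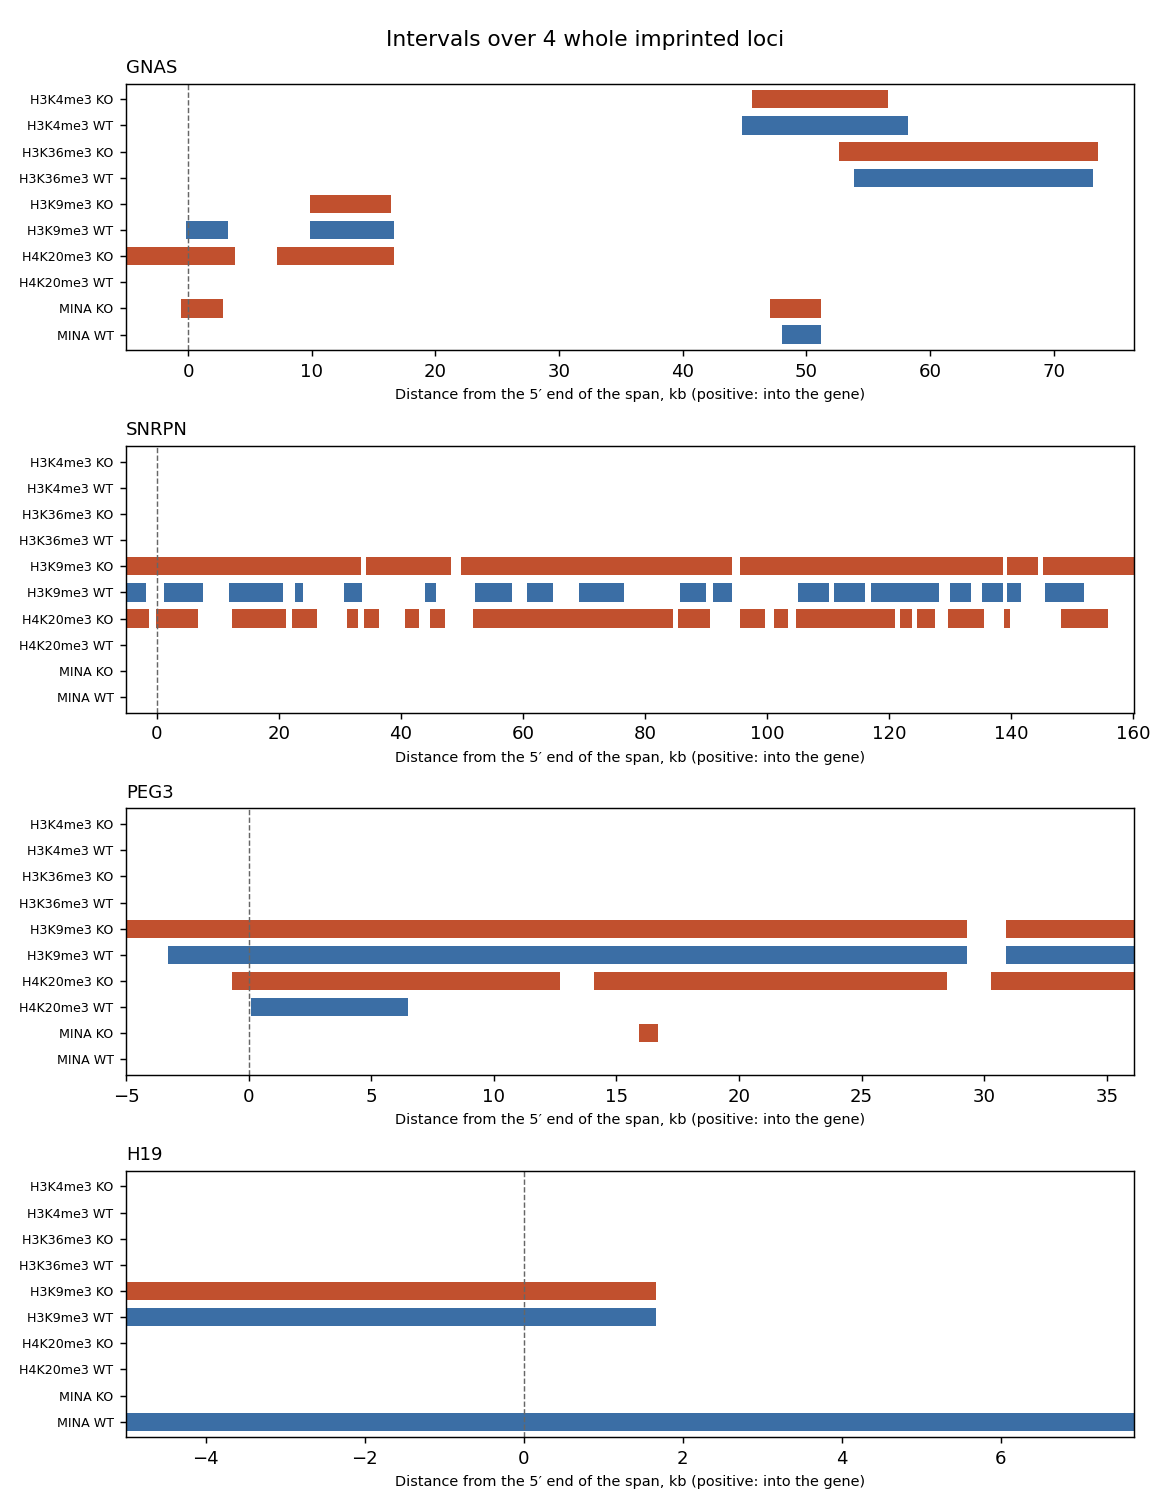
Intervals of the 10 libraries over the loci of GNAS, SNRPN, PEG3 and H19, by distance in kb from the 5′ end of the hg19 span (dashed line), with each antibody's KO row above its WT row. SNRPN shows 6 H3K9me3 intervals in KO against 18 in WT, with H4K20me3 in KO alone, and H3K4me3 of GNAS lies at other starts than its H3K9me3.

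Over all 10 loci, the ratio between the genotypes was farthest from 1 for H4K20me3. It summed to 184.6 kb in KO and 21.4 kb in WT, a ratio of 8.63, beside 2.23 over chromosomes 1 to 22 and X. Without SNRPN the ratio was 3.36. A locus was counted as higher in KO when its covered length was at least 1.5 times that of WT and differed by at least 1 kb, and as lower in the reverse case. By this rule H4K20me3 was higher in KO at 6 of the 7 loci that had any (PEG3, MEST, SNRPN, GNAS, PLAGL1 and GRB10). Of the 50-kb tiles with H4K20me3 in either list, 68.0% were higher in KO. It was lower at 1 locus, KCNQ1OT1, beside 20.1% of tiles, a call that was lost at a fold of 2. With 7 loci, no departure from these shares is read from the counts. At GRB10 the 2.24 kb in KO lay in the flank beyond the 3′ end of the gene, on H3K9me3, and the call was lost with the span alone. The PLAGL1 call was lost with intervals of at least 2 kb only. Of the 30 KO intervals 27 overlapped H3K9me3 of KO cells, against 68.5% of all KO H4K20me3 intervals, and all 3 WT intervals did, against 65.1%. SNRPN alone gave 18 of the 30, and without it 9 of 12 KO intervals lay on H3K9me3, near that background. Of the 30, 3 were also found in the WT list, at KCNQ1OT1 and PEG3, against 19.6% of all KO H4K20me3 intervals, and without SNRPN 3 of 12. All 3 WT intervals were found in KO, against 55.4%.

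Most H3K9me3 intervals at the loci were shared between the genotypes. Of the intervals at the loci, 18 of 19 in KO and 29 of 31 in WT overlapped an interval of the other genotype, against 52.8% of all KO and 68.6% of all WT H3K9me3 intervals. Leaving out SNRPN, the counts were 12 of 13 in KO and 11 of 13 in WT. The exceptions were the PEG10 interval in KO, and in WT the interval at the 5′ end of GNAS and the one near the far end of PLAGL1. By length, H3K9me3 was higher in KO at 2 of 9 loci (PEG10 and SNRPN), beside 29.5% of tiles, and lower at 2 (GNAS and PLAGL1), beside 44.7%. At a fold of 2 the calls of SNRPN and GNAS were lost, and that of SNRPN also when intervals within 5 kb were merged. With 20 kb on each side KCNQ1OT1 (34.6 kb in KO, 59.8 kb in WT) and H19 were called lower. KCNQ1OT1 was also called lower on division by the ratio over the genome (0.617). H3K9me3 summed to 259.9 kb in KO and 202.2 kb in WT, a ratio of 1.29, beside 1.20 over the genome, and of 0.865 without SNRPN.

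For H3K4me3, all 8 intervals in KO and all 8 in WT overlapped the other genotype, against 94.1% of all KO and 85.1% of all WT intervals. The sum was 51.1 kb in KO and 61.7 kb in WT, a ratio of 0.828, and the ratio over the genome was 0.844. H3K4me3 was lower in KO at 1 of 7 loci (KCNQ1OT1), beside 22.2% of tiles, and higher at 0, beside 6.52%. The KCNQ1OT1 call was lost at a fold of 2 and on division by the ratio over the genome. By any difference in length, H3K4me3 was shorter in KO at 5 of the 7 and longer at PEG10 and NNAT. At MEST this was 4.0 kb in KO and 4.2 kb in WT. No share of tiles was computed for any difference, so no departure from the genome is read from this count. At NNAT the whole interval was equally wide in both lists, and with 20 kb on each side the covered lengths were equal. For H3K36me3, 11 of 11 KO and 10 of 11 WT intervals were found in the other list, against 85.5% of all intervals in either genotype. It summed to 223.6 kb in KO and 223.4 kb in WT. The only locus that passed the rule was PEG10, lower in KO, which makes 1 of 6, beside 14.9% of tiles, and 0 were higher, beside 15.4%.

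Silent marks on H3K4me3 intervals were counted next, over few intervals. H3K9me3 overlapped 2 of the 8 H3K4me3 intervals in KO (KCNQ1OT1 and PEG10), against 5.57% of all KO H3K4me3 intervals. In WT it overlapped 2 of 8 (KCNQ1OT1 and GRB10), against 5.88%. H4K20me3 overlapped 3 of 8 in KO (KCNQ1OT1, MEST and PLAGL1), against 25.1%, and 0 of 8 in WT, against 10.6%. In KO 2 were left when 50% of the shorter interval was asked for, and 2 with intervals of at least 2 kb only. The share over all intervals was not computed at these settings. H3K36me3 and H3K9me3 met at 2 loci, KCNQ1OT1 and GRB10, in both genotypes. H3K9me3 overlapped 3 of the 11 H3K36me3 intervals in KO, against 8.24% of all KO H3K36me3 intervals, and 2 of 11 in WT, against 7.62%.

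MINA covered 16.5 kb of the loci in KO and 42.5 kb in WT, a ratio of 0.388, beside 0.298 over the genome. Of the WT length, 12.7 kb came from the single wide interval at H19. MINA was lower in KO at 6 of the 8 loci that had any (H19, KCNQ1OT1, PEG10, NNAT, PLAGL1 and GRB10), beside 67.0% of tiles, and higher at 1 (GNAS), beside 10.6%. The share of loci with less MINA was thus near the background. Divided by the ratio over the genome, the ratio was 1.75 at NNAT, where the direction turned, and 1.03 at KCNQ1OT1, which left 4 lower loci. The KCNQ1OT1 call was also lost with the span alone, where MINA covered 1.5 kb in both genotypes. At a fold of 2 the NNAT call was lost (ratio 0.521). In KO, 3 of the 5 MINA intervals lay on H3K4me3 (those at KCNQ1OT1, GNAS and NNAT), against 82.8% of all KO MINA intervals. In WT, H3K4me3 was present under 7 of 8, against 71.7%, and the remaining interval was the wide one at H19. Of the KO intervals 3 of 5 were found in WT, against 83.1% of all KO intervals, and 4 of 8 WT intervals had a KO interval on them, against 38.8%. The KO cells made no mdig protein per the labels, so the KO intervals are what the antibody returned without it.

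The loci were then set beside the 1 Mb on each side of them, with the locus left out. These windows of H19 and KCNQ1OT1 overlap. H4K20me3 was longer in KO around 8 of the 10 loci, with ratios from 2.04 at PEG3 to 17.9 at GRB10. At GRB10 this was 393 kb in KO and 22 kb in WT. H4K20me3 was shorter around PEG10 (3.8 kb in KO, 42.6 kb in WT, ratio 0.0892) and PLAGL1 (10 kb, 19.6 kb, 0.510). Over the genome its ratio was 2.23, and 68.0% of 50-kb tiles with H4K20me3 in either list were higher in KO by the rule. No share was computed for windows of 1 Mb, so no departure is read from these counts. Around H19 and NNAT the ratios were 2.40 and 2.41, while both loci had no H4K20me3 in either list. With 20 kb on each side H19 had 13.5 kb in KO and none in WT. KCNQ1OT1 was shorter in KO at the locus (0.660) and longer around it (2.83). H3K9me3 was longer in KO around 2 loci, SNRPN and GRB10, with ratios of 2.64 and 3.22, beside 1.20 over the genome. Of the 50-kb tiles with H3K9me3 in either list, 29.5% were higher in KO by the rule. At GRB10 itself H3K9me3 stayed within 0.4 kb, with 4.84 kb in KO and 4.44 kb in WT. Around H19, GNAS and PLAGL1 the H3K9me3 ratios were 0.729, 0.411 and 0.215. The last of these came from short lengths, 11.8 kb in KO and 55 kb in WT. H3K36me3 around SNRPN was 171.8 kb in KO and 46.4 kb in WT, although none was listed at the gene. MINA covered 231.2 kb in KO and 923.4 kb in WT around H19, and 191.8 kb and 778.7 kb around KCNQ1OT1. These ratios were 0.250 and 0.246, beside 0.298 over the genome. Around MEST, SNRPN and GRB10 the MINA ratios were 1.11, 1.30 and 1. The part of these neighbourhoods in the values of the loci was not tested.

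**Figure D4:**
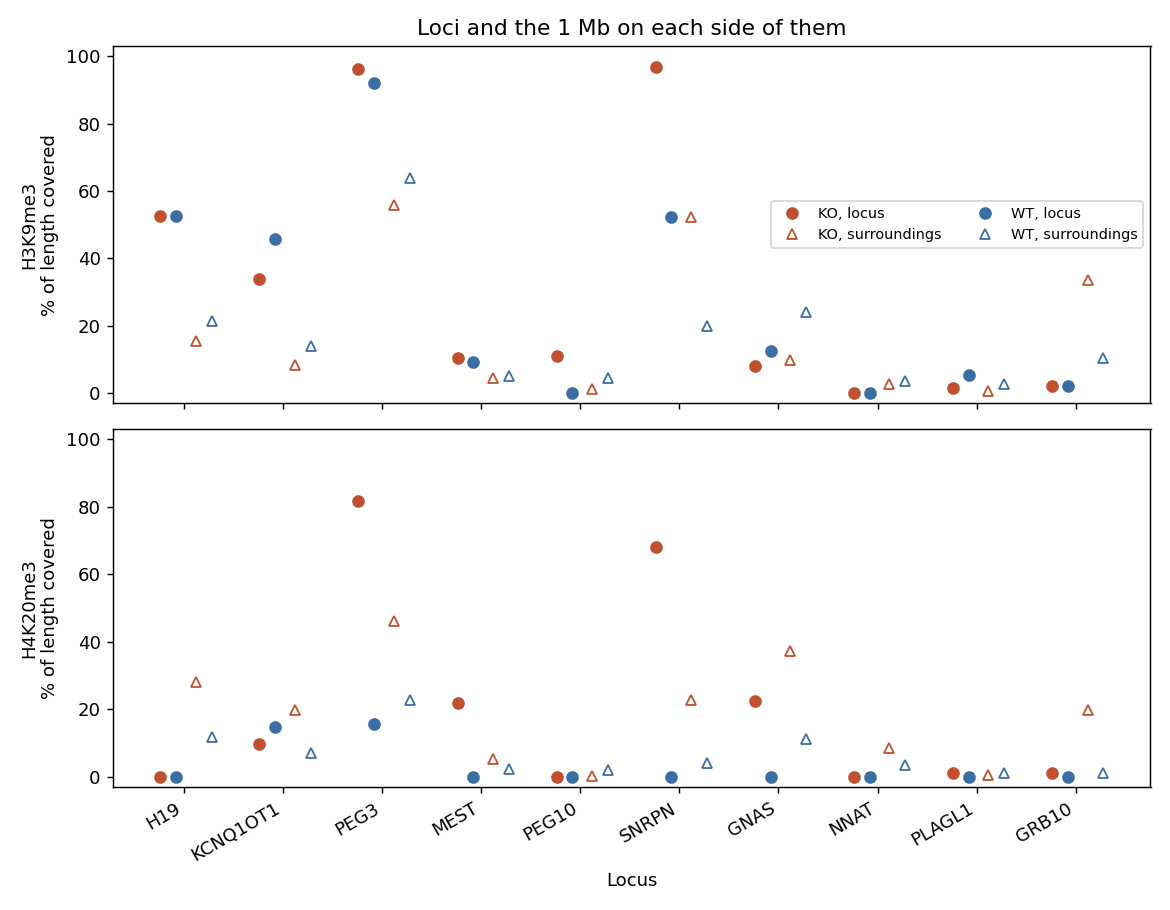
Percent of length covered by H3K9me3 (top) and H4K20me3 (bottom) in each locus (filled circles) and in the 1 Mb on each side of it (open triangles), KO left of WT, 1 library per point. H3K9me3 lies above its surroundings in both genotypes at H19, KCNQ1OT1, PEG3, MEST, SNRPN and PLAGL1, below them in both at GNAS, NNAT and GRB10, and above in KO alone at PEG10, and H4K20me3 at SNRPN reaches 68.2% in KO, with 22.6% around it.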

How the data were processed

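ChIP-seq of MDA-MB-231 cells gave 10 ChIP libraries, 1 per antibody and genotype. The input library was left out. BWA, SICER version 1.1 and hg19 are named in the submitters' processing notes. The values are positions deposited by the authors as interval starts and ends, with no score, on a 200-bp grid, and 1 list per library is given per the file headers. Window, gap and false discovery settings, depth scaling and input use were not given in the sources used here. A deeper or better enriched library gives more and wider intervals, so a ratio of lengths does not separate depth from a change of a mark.

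Covered lengths, overlaps (1 bp) and counts were computed with Python 3.11.15 and numpy 2.4.6 on chromosomes 1 to 22 and X, and tested on simulated data. Strands came from the RefSeq promoter table for 6 members and from background knowledge for the others. Gene neighbours and start sites came from RefSeq GRCh38.p14, and no coordinate was converted. All 10 members are named. The rule for naming intervals took the widest at a member, those over a 5′ end and H3K4me3 intervals that met a silent mark; not every one of these is printed, and further intervals near them were chosen after their values were seen. Members and rules were chosen with earlier results of these data known. Markers of the cell line were not analysed here, since no hg19 annotation was used. Alternatives were the flank, merged or filtered intervals, the fold, the scaling, the tile size and the overlap.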

Additional observations from a re-analysis of the deposited data

How the results depend on the processing

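Of 50 pairs of locus and antibody, 47 kept their call with the span alone, 46 with 20 kb on each side, 49 with intervals within 5 kb merged and 49 with intervals of at least 2 kb only. Pairs with no interval in either list are among the 50. Their call cannot change with the span alone or with narrow intervals left out. The call of H4K20me3 at KCNQ1OT1 reversed with 20 kb on each side, where KO exceeded WT by 7.9 kb, and the causes of these changes were not tested. The number of loci lower in KO was then 0 for H4K20me3 and 4 for H3K9me3, with H19 and KCNQ1OT1 now among the latter. With the span alone 1 locus was higher in KO for H3K4me3, and the summed MINA ratio was 0.612. With intervals merged 1 locus was higher for H3K9me3, since the call of SNRPN was lost. A fold of 2 gave 0 lower loci for H3K4me3, 1 higher and 1 lower for H3K9me3 and 0 lower for H4K20me3. Dividing by the ratio over the genome gave 0 lower loci for H3K4me3 and 3 for H3K9me3, with KCNQ1OT1 now among the latter. For MINA it gave 2 higher and 4 lower, with NNAT now among the higher. Asking for 50% of the shorter interval left 1 WT H3K4me3 interval on H3K9me3 and 2 KO H3K4me3 intervals on H4K20me3. Without SNRPN, an alternative chosen after seeing the data, the summed H4K20me3 ratio was 3.36, and the counts without SNRPN were likewise chosen after seeing the data. Tiles of 20 and 200 kb moved the share of tiles with H3K4me3 in KO to 13.4% and 51.2%. The number of loci higher in KO for H4K20me3 ran from 5 to 8. No paired analysis was possible because there is 1 library per antibody and genotype. With no replicates and no depth, the error of a covered length is unknown.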

Other observations

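Within 5 Mb on each side of the loci, H4K20me3 was longer in KO around 8 of the 10 and shorter around PEG10 (ratio 0.927) and PLAGL1 (0.539). Over the genome its ratio was 2.23. No share was computed for windows of 5 Mb, so no departure is read from this count. The ratio was 17.8 around SNRPN, 14.8 around GRB10, 8.35 around NNAT and 5.05 around MEST. The MINA ratio within 5 Mb was 1.08 around SNRPN and 1.12 around GRB10, and between 0.252 (KCNQ1OT1) and 0.871 (MEST) around the others.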
